A study of Mus musculus with 5 samples.

Results

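Chemokines are small secreted proteins that draw leukocytes along a concentration gradient, and they act through G protein-coupled receptors on the cells they attract. The genes examined were those whose annotated symbol begins with Ccl or Cxcl (ligands) or with Ccr or Cxcr (receptors) followed by a digit, and the brightest probe set of a gene, by its average on the 5 arrays, stands for it. This choice gave 46 genes, 31 ligands and 15 receptors, out of 18193 genes that have a probe set with a single symbol, and they are read by 70 probe sets. A further 4 probe sets name such a gene among several symbols and were not assigned to any of them.

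The names divide the family by the spacing of the first cysteines of the ligand, adjacent in CC ligands and separated by another residue in CXC ligands. Inflammatory chemokines are switched on by cytokines and by microbial or tissue damage signals and recruit monocytes, neutrophils and effector lymphocytes, whereas homeostatic chemokines are made without inflammation and position cells within tissues. In the heart, resident macrophages, fibroblasts and endothelial cells are sources of several of these ligands, and CCR2 marks macrophages that derive from blood monocytes.

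Total RNA from hearts, collected after bleeding and flushing of the mice with saline, was hybridized to Affymetrix Mouse Genome 430 2.0 arrays, and the values below are the deposited log2 expression values. The 3 NZB_W arrays came from untreated female NZB_W mice of 12 to 15 weeks, known as the hybrid of 2 inbred strains that develops lupus-like disease spontaneously, here with moderate kidney injury by Austin score. The 2 NZW arrays came from untreated, age-matched, healthy female NZW mice. The study was a pilot meant to find candidate genes that change in the heart during lupus nephritis. Strain background and disease differ together between the groups and cannot be told apart, and in RNA of the bulk heart a change in the number of cells of a type cannot be told apart from a change in RNA per cell. The titles call the arrays biological replicates, and with 5 arrays their number limits the precision of every value.

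Before the members are described, the state of the arrays matters. NZB_W array 3 and NZW array 2 stood apart from the rest: beta-actin control probes at the 5' end of the transcript read below those at the 3' end by a log2 difference of -1.31 on the first and -1.19 on the second, against -0.89 to -0.88 on the other 3, and the first principal component over genes placed NZB_W array 3 at 30.4 and the others between -15.4 and -4.03. All 8 cardiomyocyte markers examined lay above the median of every array, as the labelled tissue has them. Of 11 macrophage and monocyte markers, all past the filter described next, 11 had a positive difference, against 45.2% of all genes tested. Itgam, 1 of them, exceeded the array median only on the NZB_W arrays, so it passed that filter through the group where it was higher. The summed level of the 11 markers on the linear scale was 4787, 4571 and 7844 on NZB_W arrays 1, 2 and 3, against 4273 and 3113 on NZW arrays 1 and 2. Of 6 fibroblast markers 4 had a positive difference, with sums of 8064, 8620 and 15815 on the NZB_W arrays and 10313 and 9282 on the NZW arrays, so both marker sums were highest on NZB_W array 3. Of 3 red cell markers 2 passed the filter, Alas2 and Slc4a1, and both were higher on every NZB_W array, against 7.6% of genes tested. Slc4a1 exceeded the array median only on the NZB_W arrays, so it passed through the group where it was higher. The sums over all 3 markers were 993.6, 276 and 1437 on the NZB_W arrays and 168 and 146 on the NZW arrays. What these cells contribute to the chemokine values was not tested.

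A gene was tested when its probe set was brighter than the array median (4.62 to 4.68) on 2 or more of the 5 arrays. No detection calls were used here, so passing this filter does not show that a gene was expressed. By this rule 22 of the 46 members were tested, 18 of the 31 ligands and 4 of the 15 receptors, or 58.1% and 26.7%, against 65.4% of all genes. Of the 22, 20 lay above the median on all 5 arrays, 17 of them ligands and 3 receptors, while Ccl11 exceeded it on 4 arrays and Ccr10 on 2. Those 2 were NZB_W arrays 1 and 2, so Ccr10 passed the filter only through the group where it was higher. Among the 24 members below the filter, 21 exceeded the median on no array, and Cxcl10, Ccl12 and Ccr1 exceeded it on 1 array, NZB_W array 3. Many members carried the same value to the last deposited digit on 2 or more arrays, 32 of the 46 against 57.8% of all genes, and Ccl4 (5.29) and Ccr8 (3.23) had a single value on all 5 arrays. Some values above the medians also recurred in other genes. That of Ccl4 was found in Ackr4 and Cpa3, and a value of Cxcr4 (5.61) in Ackr2. The source of such repeats was not tested, and an overlap that rests on them may not be a measured one.

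No member passed the test between NZB_W and NZW hearts. Over the 11902 genes tested together, limma with Benjamini-Hochberg adjustment called 0.0084% of genes at an adjusted p under 0.05, 1 gene that is no member, and the lowest adjusted p of any member was 0.859. At an unadjusted p under 0.05, 2 of the 22 members were found, Cxcl9 and Ccl5, against 5.55% of all genes tested, and 2.51% in the higher direction that both took. Over all 18193 genes without the filter these shares were 4.53% unadjusted and 0.0055% adjusted, again 1 gene. The 2 groups did not overlap in 3 ligands that were higher in every NZB_W array (Cxcl9, Ccl5 and Cxcl16), against 7.6% of genes tested, and in 1 that was lower (Ccl24), against 9.83%. Each gene is therefore described by its values.

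**Figure D1:**
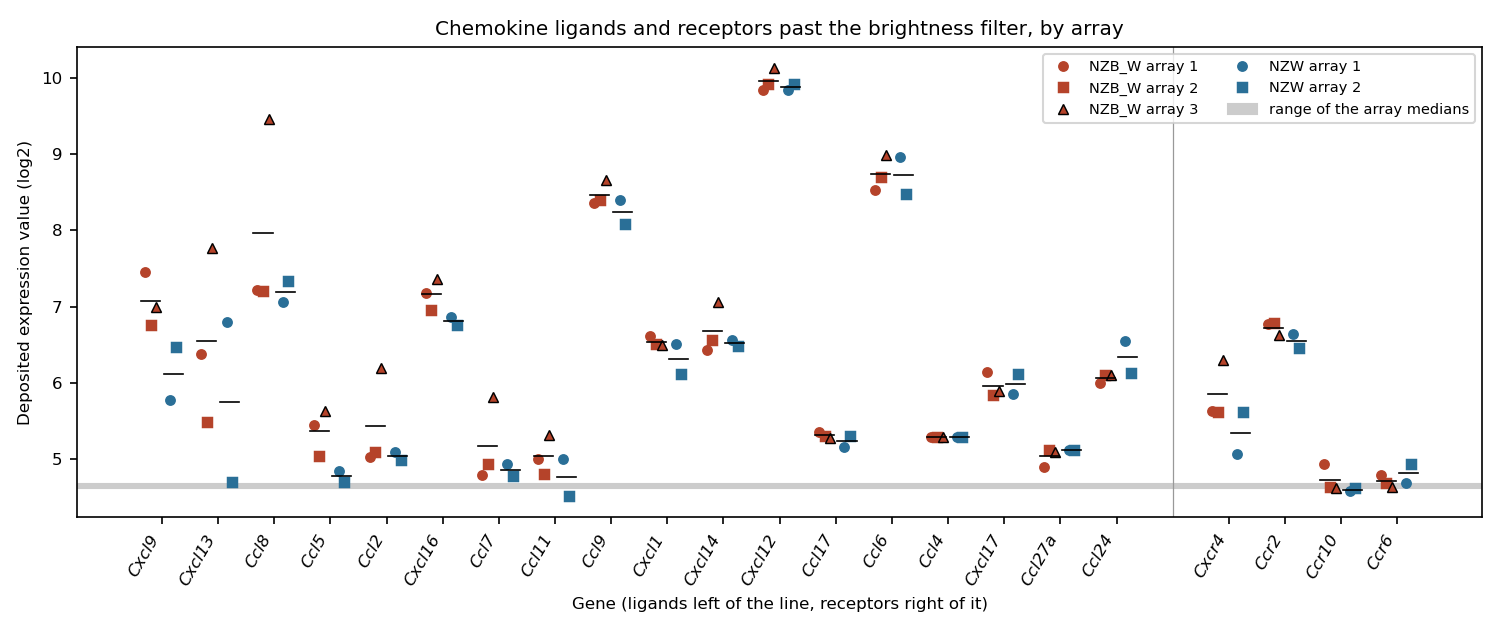
Deposited log2 value on each array (y axis) of the 22 chemokine ligands and receptors that passed the brightness filter (x axis), NZB_W arrays in red to the left of NZW arrays in blue for each gene, with group means as short bars and the range of the 5 array medians as a grey band. NZB_W array 3, drawn as outlined triangles, leads every other array by more than 0.5 for Ccl8, Ccl2, Ccl7, Cxcl13 and Cxcr4. It is the highest array in 11 of the 18 ligands, Ccl5 and Cxcl16 among them, and in 1 of the 4 receptors. The matching share over all genes was not computed. The groups do not overlap for Cxcl9, Ccl5, Cxcl16 and Ccl24.

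Ligands of CXCR3, the receptor of effector T and NK cells, are induced by interferon gamma. Cxcl9 (probe set 1418652_at) had log2 values of 7.45, 6.76 and 6.997 in NZB_W hearts, against 5.77 and 6.47 in NZW hearts. All 3 NZB_W values were above both NZW values, although NZB_W array 2 and NZW array 2 were only a short step apart. The difference was 0.95 (SE 0.30, 95% interval 0.16 to 1.73), or 1.93-fold, with an unadjusted p of 0.0273 and an adjusted p of 0.859 in limma. It was 0.60 without NZW array 1 and 1.30 without NZW array 2. A second, dimmer Cxcl9 probe set (1456907_at) read 4.08, 3.64 and 4.13 in NZB_W and 3.84 and 3.91 in NZW, below the array medians and with overlapping groups, so the mean of both probe sets differed by 0.51.

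Cxcl10, which acts through the same receptor, had log2 values of 4.31, 3.88 and 4.79 in NZB_W hearts, against 3.67 and 3.42 in NZW hearts. The groups did not overlap here either, as in 6.64% of all 18193 genes in this direction, yet only NZB_W array 3 exceeded its array median. In the fit over all genes without a brightness filter the difference was 0.78 (SE 0.29, 95% interval -0.0064 to 1.58, adjusted p = 0.873 in limma), and it was 0.55 without NZB_W array 3. Cxcl11, the remaining CXCR3 ligand, read 3.67 to 3.89 in NZB_W and 3.84 to 3.89 in NZW, dim on every array. The receptor Cxcr3 itself was dim on all 5 arrays, at 4.04 to 4.13 in NZB_W and 3.95 to 4.04 in NZW. Thus Cxcl9, on 1 of its 2 probe sets, and the mostly dim Cxcl10 separated the groups, as 6.64% of all 18193 genes did in this direction. The overlap of Cxcr3, at values this dim, says little about the receptor.

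Ccl5, a ligand of CCR1 and CCR3 made by T cells, NK cells and macrophages among others, had log2 values of 5.44, 5.04 and 5.63 in NZB_W hearts, against 4.84 and 4.70 in NZW hearts. Every NZB_W array was above both NZW arrays. The difference was 0.60 (SE 0.19, 95% interval 0.097 to 1.10), or 1.52-fold, with an unadjusted p of 0.0283 and an adjusted p of 0.859 in limma, and it ran from 0.47 to 0.76 when single arrays were left out. The T cell markers Cd3e, at 5.83 to 6.03 in NZB_W and 5.91 to 5.95 in NZW, and Cd4, at 5.35 to 5.41 in NZB_W and 5.32 to 5.35 in NZW, lay above the median of every array, with overlapping groups. Of 6 T cell markers 3 and of 5 NK cell markers 4 exceeded the median on no array, and the summed level ran from 160 to 181 in NZB_W and 159 to 164 in NZW for T cells, and from 98.1 to 103 in NZB_W and 88.1 to 90.1 in NZW for NK cells. Without the filter 5 of the 6 T cell and 5 of the 5 NK cell markers were positive, against 48.6% of all genes. Cd2, Nkg7 and Gzma, dim on all arrays, were higher on every NZB_W array, against 6.64% of all genes. The part of these cells in the Ccl5 values was not tested.

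Cxcl16 is both a transmembrane adhesion molecule and, once shed, a ligand of CXCR6. Its brightest probe set (1418718_at) had log2 values of 7.18, 6.95 and 7.37 in NZB_W hearts, against 6.86 and 6.76 in NZW hearts. The groups did not overlap, and the difference was 0.36 (SE 0.14, 95% interval -0.0092 to 0.72, adjusted p = 0.859 in limma). A second probe set (1449195_s_at) read 5.86, 5.76 and 6.80 against 5.76 and 5.48, a difference of 0.52 (SE 0.36) in which NZB_W array 2 met NZW array 1. Cxcr6 was dim, at 3.70 to 3.94 in NZB_W and 3.62 to 3.84 in NZW.

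A block of monocyte-attracting CC ligands was high on a single array. Ccl2, Ccl7 and Ccl12 signal through CCR2, and mouse CCL8 is known as an agonist of CCR8. In the RefSeq gene order of GRCm38.p6 these genes are neighbours, in the run Ccl2, Ccl7, Ccl11, Ccl12, Ccl8 and Ccl1 on chromosome 11. Ccl8 had log2 values of 7.21, 7.21 and 9.47 in NZB_W hearts, against 7.06 and 7.33 in NZW hearts. NZB_W array 3 stood 2.14 above the next array, and the other 4 arrays lay together.

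The same array carried the values of its neighbours. Ccl12 had 4.02, 3.96 and 6.26 in NZB_W hearts, against 3.94 and 4.03 in NZW hearts, so 4 of 5 arrays were below the array median and 1 was 2.23 above the next. Ccl2 had 5.02, 5.09 and 6.19 in NZB_W hearts, against 5.09 and 4.99 in NZW hearts. Ccl7 had 4.79, 4.93 and 5.81 in NZB_W hearts, against 4.93 and 4.78 in NZW hearts. In all 4 genes NZB_W arrays 1 and 2 lay within or close to the NZW range. Ccl11 (eotaxin), between them on the chromosome, had 5.001, 4.80 and 5.32 in NZB_W hearts, against 5.001 and 4.52 in NZW hearts, and Ccl1 was dim on all arrays (3.66 to 4.10 in NZB_W and 3.796 to 3.97 in NZW).

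The group difference of these genes therefore rested on NZB_W array 3. With all arrays it was 0.77 (SE 0.78) for Ccl8, 0.76 (SE 0.81) for Ccl12, 0.39 (SE 0.40) for Ccl2 and 0.32 (SE 0.34) for Ccl7, each interval including 0. Without NZB_W array 3 it was 0.016 for Ccl8, 0.0064 for Ccl12, 0.016 for Ccl2 and 0.0068 for Ccl7. A lead of more than 0.5 of NZB_W array 3 over every other array, a size chosen after the values were seen, was found in 4 of the 18 tested ligands (Ccl2, Ccl7, Ccl8 and Cxcl13) and 1 of the 4 tested receptors (Cxcr4), against 3.86% of all genes tested. Below the filter it was found in Ccl12 and Ccr1 among 24 members, against 1.45% of the 6291 genes below the filter and 3.02% of all 18193 genes. The summed macrophage markers of that array were 1.64 times those of the next highest array and the fibroblast markers 1.53 times, and their part in these values was not tested.

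The sequences upstream of Ccl8 and Ccl12, which were both high on NZB_W array 3, and of Cxcl9 and Cxcl10, the CXCR3 ligands whose groups did not overlap, are shown so that the letters before genes of either profile can be read. They are the 250 bases before the gene start, 5' to 3' on the gene's strand, from RefSeq on GRCm38.p6, at chr11:82114935-82115184 (plus strand) for Ccl8, chr11:82101595-82101844 (plus strand) for Ccl12, chr5:92328080-92328329 (minus strand) for Cxcl9 and chr5:92348890-92349139 (minus strand) for Cxcl10. Capitals mark every match, on either strand, of 4 motifs chosen with the values known. They are the TATA box (TATAAA), a core of the interferon-stimulated response element (GAAA, any 2 bases, GAAA), a core of the interferon gamma activated site (TTC, any 3 bases, GAA) and a form of the NF-kappa-B site (GGG, any 3 bases, TTCC).
Ccl8: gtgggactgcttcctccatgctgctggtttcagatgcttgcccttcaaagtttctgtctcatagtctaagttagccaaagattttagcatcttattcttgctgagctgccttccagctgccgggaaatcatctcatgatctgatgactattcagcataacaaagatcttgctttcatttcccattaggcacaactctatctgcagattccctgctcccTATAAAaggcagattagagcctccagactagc
Ccl12: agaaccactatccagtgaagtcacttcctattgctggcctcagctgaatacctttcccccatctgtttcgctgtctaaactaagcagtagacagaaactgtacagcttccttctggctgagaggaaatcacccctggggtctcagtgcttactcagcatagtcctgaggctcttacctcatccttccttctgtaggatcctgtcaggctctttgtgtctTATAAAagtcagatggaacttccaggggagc
Cxcl9: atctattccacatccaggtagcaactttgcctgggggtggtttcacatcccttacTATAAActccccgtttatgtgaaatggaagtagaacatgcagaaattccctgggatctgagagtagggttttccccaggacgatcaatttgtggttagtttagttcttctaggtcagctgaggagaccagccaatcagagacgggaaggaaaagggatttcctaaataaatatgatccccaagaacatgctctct
Cxcl10: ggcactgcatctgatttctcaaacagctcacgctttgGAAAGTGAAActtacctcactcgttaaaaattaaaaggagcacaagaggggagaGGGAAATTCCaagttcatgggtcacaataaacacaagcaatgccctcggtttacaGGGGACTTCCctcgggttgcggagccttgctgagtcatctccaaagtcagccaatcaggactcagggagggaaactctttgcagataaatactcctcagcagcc

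Ccl8 and Ccl12 each held TATAAA shortly before the gene start, beginning 32 and 31 bases upstream, and none of the other motifs. Cxcl9 held TATAAA farther away, beginning 195 bases upstream. Cxcl10 held the response element core once, beginning 213 bases upstream, and the NF-kappa-B form at 2 places, 159 and 104 bases upstream, with no overlap between these matches. Among all 32851 windows of this length, TATAAA was present in 12.4%, the response element core in 2.98%, the activated site core in 7.02% and the NF-kappa-B form in 4.65%. Windows were at hand for 33 of the 46 members, 37 windows in all, of which 10 held TATAAA, 2 held the response element core (Cxcl10 and Cxcl14), 4 held the activated site core and 9 held the NF-kappa-B form. A match describes the letters only, and no binding was measured.

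**Figure D2:**
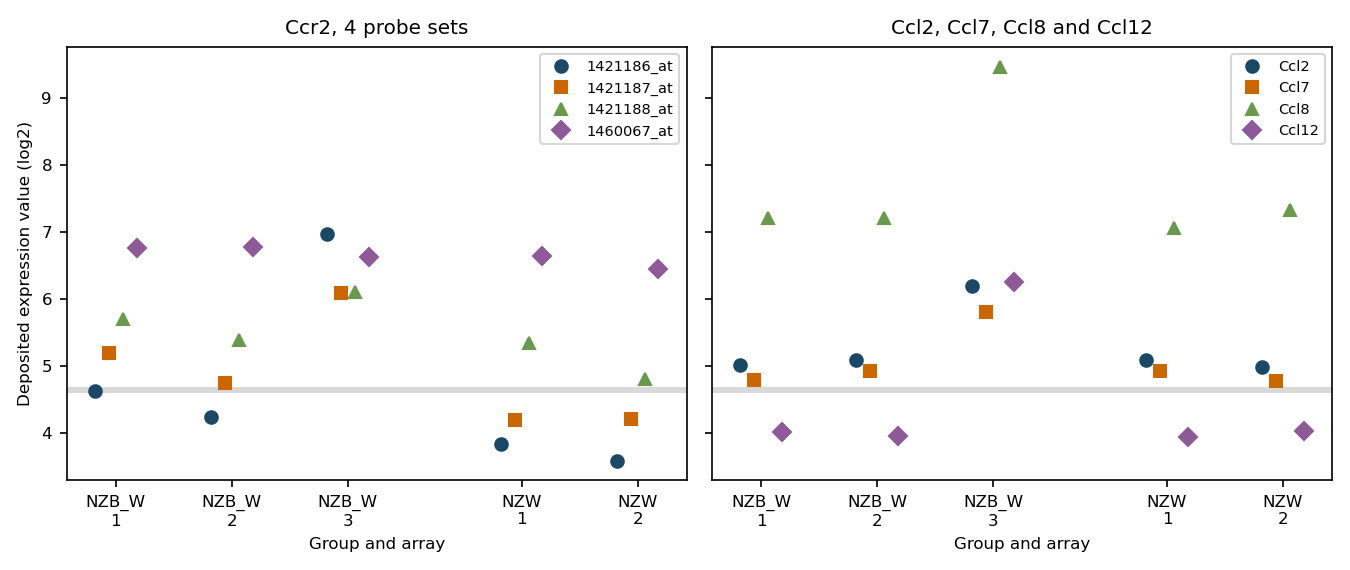
Deposited log2 values by array (x axis, NZB_W arrays left of NZW arrays) of the 4 Ccr2 probe sets (left panel) and of Ccl2, Ccl7, Ccl8 and Ccl12 (right panel), with the range of array medians as a grey band. The Ccr2 probe set 1460067_at is nearly level while the other 3 are higher in every NZB_W array, and the 4 ligands are high on NZB_W array 3 alone.

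Ccr2, the receptor of inflammatory monocytes, gave different answers on different probe sets. The brightest one (1460067_at), which stood for the gene, had log2 values of 6.77, 6.78 and 6.62 in NZB_W hearts, against 6.64 and 6.46 in NZW hearts. These groups overlapped on NZB_W array 3 and NZW array 1, and the difference was 0.17 (SE 0.094, adjusted p = 0.859 in limma), and 0.080 without NZW array 2. Probe set 1421187_at had 5.19, 4.74 and 6.09 in NZB_W hearts, against 4.199 and 4.21 in NZW hearts. Probe set 1421188_at had 5.71, 5.39 and 6.10 in NZB_W hearts, against 5.35 and 4.80 in NZW hearts. Probe set 1421186_at, below the brightness filter, had 4.62, 4.25 and 6.97 in NZB_W hearts, against 3.84 and 3.59 in NZW hearts.

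In those 3 probe sets every NZB_W array exceeded both NZW arrays, which held for 6.96% of the 22819 probe sets past the filter and 5.76% of all 45037. When probe sets were tested one by one, 1421187_at differed by 1.14 (SE 0.42, unadjusted p = 0.0447, adjusted p = 0.883 in limma) and 1421188_at by 0.66 (SE 0.27, adjusted p = 0.883), with 5 probe sets (0.0219%) called in all, none of a member, and 5.25% at an unadjusted p under 0.05. Probe set 1421187_at exceeded the array median on the NZB_W arrays only. It thus passed the filter through the group where it was higher, and its p and separation among filtered probe sets give no support. In the fit over all probe sets 1421186_at differed by 1.56 (SE 0.93, adjusted p = 0.877 in limma). The mean of the 4 probe sets differed by 0.88. The reading of Ccr2 thus depended on which of its probe sets was used. The 3 dimmer probe sets were above NZW on NZB_W arrays 1 and 2 as well, but with limits beside that of 1421187_at. Probe set 1421186_at lay below the array median on both of these arrays. Probe set 1421188_at read 5.39 on NZB_W array 2, close to 5.35 on NZW array 1.

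Cxcr4, the receptor of Cxcl12 on progenitors, lymphocytes and endothelial cells, had log2 values of 5.63, 5.61 and 6.30 in NZB_W hearts, against 5.07 and 5.61 in NZW hearts. NZB_W array 2 and NZW array 2 carried the same value, so the groups overlapped, but that value also recurred in Ackr2. The difference was 0.51 (SE 0.29, 95% interval -0.25 to 1.26, adjusted p = 0.859 in limma), and it was 0.28 without NZB_W array 3 and 0.23 without NZW array 1. Its ligand Cxcl12, a homeostatic chemokine of stromal and endothelial cells, had 9.85, 9.92 and 10.1 in NZB_W hearts, against 9.84 and 9.92 in NZW hearts. Those values lay within a narrow band (difference 0.085, 95% interval -0.19 to 0.36, and 0.0043 without NZB_W array 3), and its other bright probe sets differed by 0.33 (1448823_at, SE 0.29) and 0.037 (1439084_at, SE 0.28). Ackr3, which scavenges Cxcl12, differed by 0.11 (SE 0.066).

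Of the other 2 tested receptors, Ccr10, a receptor of skin- and mucosa-homing lymphocytes, had 4.93, 4.63 and 4.62 in NZB_W hearts, against 4.58 and 4.62 in NZW hearts. Ccr6, found on dendritic cells and a subset of T cells, had 4.79, 4.69 and 4.64 in NZB_W hearts, against 4.69 and 4.93 in NZW hearts. Both sat close to the array medians, with differences of 0.13 (SE 0.12) and -0.10 (SE 0.10). The Ccr6 difference turned to 0.019 without NZW array 2, and that of Ccr10 was 0.027 without NZB_W array 1.

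Ccr1, a monocyte and neutrophil receptor for Ccl5, Ccl6 and Ccl9, had log2 values of 4.08, 4.46 and 5.73 in NZB_W hearts, against 4.46 and 4.46 in NZW hearts, on a probe set below the filter. Again NZB_W array 3 alone was high, and the difference of 0.30 (SE 0.54) turned to -0.19 without that array. Its second probe set was dimmer and did not follow, at 2.85 to 3.20 in NZB_W and 3.13 to 3.27 in NZW. Cxcr2, the neutrophil receptor for ELR-containing CXC ligands, had 4.31, 3.99 and 4.03 in NZB_W hearts, against 4.03 and 3.74 in NZW hearts, dim on every array, with a difference of 0.22 (SE 0.15) that was 0.077 without NZW array 2. The remaining dim receptors were Ccr3, Ccr4, Ccr7, Ccr8, Ccr9, Ccr1l1, Cxcr3, Cxcr5 and Cxcr6, with differences from -0.16 for Cxcr5, the B cell follicle receptor, to 0.12 for Ccr7, which guides cells to lymph nodes. None of these 9 exceeded an array median on any array.

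Ccl9 and Ccl6, CCR1 ligands of myeloid cells in rodents, were well above the array medians and differed little. Ccl9 had log2 values of 8.36, 8.40 and 8.66 in NZB_W hearts, against 8.40 and 8.08 in NZW hearts (difference 0.23, SE 0.15, and 0.071 without NZW array 2). Ccl6 had 8.53, 8.70 and 8.99 in NZB_W hearts, against 8.96 and 8.48 in NZW hearts (difference 0.017, SE 0.21). Both groups overlapped in each gene, and the second Ccl9 probe set differed by 0.28 (SE 0.17) and the second Ccl6 probe set by -0.053 (SE 0.29). Ccl4, in the same chromosomal run with Ccl5, Ccl9, Ccl6 and Ccl3, had the value 5.29 on all arrays, so a difference could not be read from it. Ccl3, the partner of Ccl4 in macrophages, was dim at 3.83 to 4.04 in NZB_W and 3.82 to 3.93 in NZW.

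Ccl24 (eotaxin 2), an eosinophil attractant made by macrophages, was the 1 tested member whose NZB_W values all lay below NZW. It had log2 values of 6.00, 6.10 and 6.10 in NZB_W hearts, against 6.55 and 6.12 in NZW hearts. The separation from NZW array 2 was slight, and the difference of -0.27 (SE 0.14, 95% interval -0.64 to 0.10, adjusted p = 0.859 in limma) was -0.057 without NZW array 1. Its receptor Ccr3, shared with Ccl11 and Ccl5, was dim at 2.67 on all 3 NZB_W arrays and at 2.57 and 2.74 in NZW.

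Cxcl13, the B cell attractant of lymphoid follicles, varied more within each group than between them. Its brightest probe set had log2 values of 6.37, 5.49 and 7.77 in NZB_W hearts, against 6.80 and 4.70 in NZW hearts, and its second probe set (1417851_at) had 6.11, 4.93 and 8.75 against 7.09 and 3.64. Both probe sets ordered the 5 arrays alike, with NZB_W array 3 highest, NZW array 1 next and NZW array 2 lowest. The difference was 0.79 (SE 0.93, 95% interval -1.65 to 3.23, adjusted p = 0.886 in limma), and it was -0.26 without NZW array 2 and 1.84 without NZW array 1. Summed B and plasma cell marker levels on the NZB_W arrays were 272, 153 and 234, and the NZW arrays had 215 and 126. The sum was lowest on the same array as Cxcl13, but it was highest on NZB_W array 1, where Cxcl13 was not. Of the 5 markers 2 exceeded the median on no array, and the part of these cells was not tested.

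The remaining tested ligands overlapped between the groups. Cxcl14, an epithelial and stromal chemokine, had 6.43, 6.56 and 7.06 in NZB_W hearts, against 6.56 and 6.49 in NZW hearts (difference 0.16, SE 0.21, and -0.026 without NZB_W array 3). Cxcl1, a neutrophil attractant and the 1 ELR-containing CXC ligand past the filter, had 6.61, 6.51 and 6.50 in NZB_W hearts, against 6.51 and 6.11 in NZW hearts (difference 0.23, SE 0.14, and 0.029 without NZW array 2), while its other bright probe set differed by 0.053 (SE 0.19). Cxcl17, a mucosal chemokine, Ccl17, a ligand of CCR4, and Ccl27a, a skin chemokine that binds CCR10, differed by -0.025 (SE 0.14), 0.080 (SE 0.075) and -0.087 (SE 0.091).

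The 13 ligands below the filter were Cxcl10, Cxcl11, Ccl12, Ccl1, Ccl3, Ccl20, Ccl22, Ccl25, Ccl28, Cxcl2, Cxcl3, Cxcl5 and Cxcl15. Apart from Cxcl10 and Ccl12 their differences ran from -0.098 for Ccl22, a ligand of CCR4, to 0.15 for Cxcl2, a neutrophil attractant. The 4 ELR-containing CXC ligands among them, Cxcl2, Cxcl3, Cxcl5 and Cxcl15, were below the median on every array, as was their receptor Cxcr2.

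**Figure D3:**
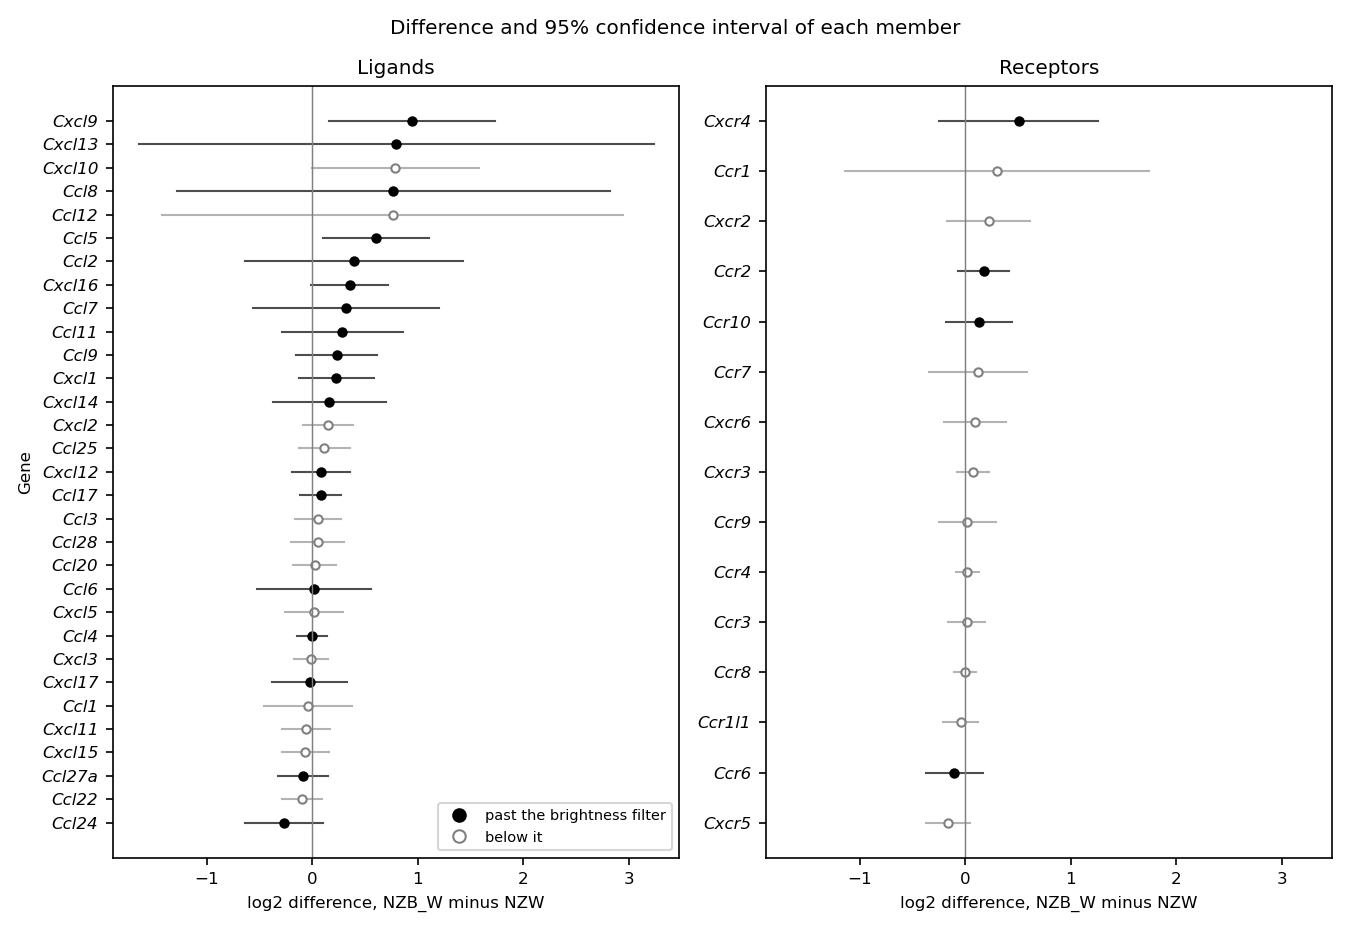
Log2 difference of NZB_W minus NZW (x axis) with its 95% confidence interval for each of the 31 ligands (left) and 15 receptors (right), filled where the gene passed the brightness filter and open where it did not, in which case the value comes from the fit over all genes. Among tested genes the intervals of Cxcl9 and Ccl5 lie above 0 before adjustment, and the interval of Cxcl13 is the widest.

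Set side by side, ligands and receptors leaned the same way. Of the 18 tested ligands 14 had a positive difference, 3 a negative one and 1 (Ccl4) none, and of the 4 tested receptors 3 were positive and 1 negative, against 45.2% positive among all genes tested. Ccr10, 1 of the 3 positive receptors, passed the filter only through NZB_W arrays, so it adds no support to the receptor count or median. The median difference was 0.23 for ligands and 0.15 for receptors, against -0.014 for all genes tested. Over all members without the filter it was 0.085 for the 31 ligands and 0.073 for the 15 receptors, against -0.0012 for all 18193 genes, with 22 and 11 positive, against 48.6%. The members share their arrays and the test gives no p for a list.

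The ligand median depended on 2 arrays. The receptor median moved less, but over 4 genes it lies between Ccr10 (0.13) and Ccr2 (0.17) and so rests in part on Ccr10. It was not computed without Ccr10, so neither its steadiness nor its comparison with the ligands gives support. Per array, relative to each gene's mean, the ligand median was -0.011, -0.066 and 0.29 on NZB_W arrays 1, 2 and 3, against -0.076 and -0.26 on NZW arrays 1 and 2. NZB_W array 3 was thus highest and NZW array 2 lowest. Without NZB_W array 3 the median difference was 0.016 for ligands and 0.20 for receptors, without NZW array 2 it was 0.11 and 0.12, and without both it was -0.011 and 0.17. Ligands exceeded receptors by 0.077 with all arrays and fell below them by 0.19 without NZB_W array 3, so no order of the 2 classes held across settings.

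**Figure D4:**
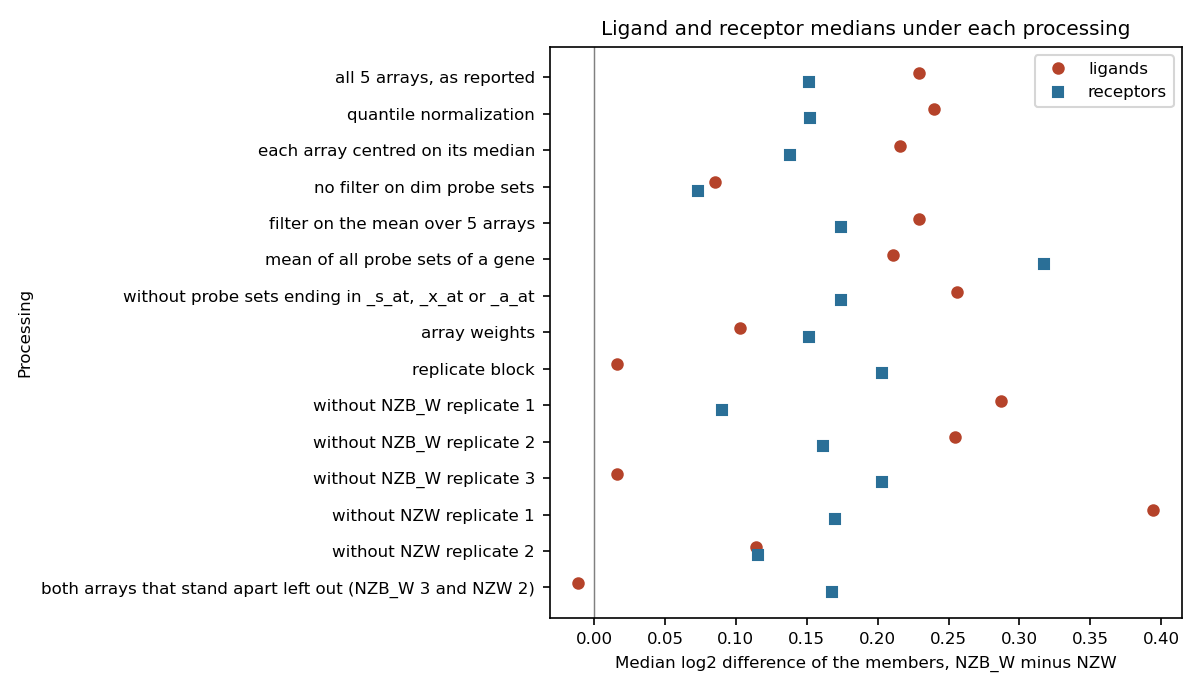
Median log2 difference of NZB_W minus NZW (x axis) of the tested ligands (circles) and receptors (squares) under each processing (y axis), over all members in the setting without a filter. The ligand median runs from -0.011 to 0.39 and is near 0 wherever NZB_W array 3 is left out or set in its own block, while the receptor median runs from 0.073 to 0.32.

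By subclass, 7 of 9 tested inflammatory CC ligands were positive (median 0.28), and 4 of the 5 CXC ligands outside the ELR and CXCR3 groups (median 0.16), whereas the tested homeostatic or dual CC ligands, Ccl17 and Ccl27a, differed in opposite directions. Without NZB_W array 3 the median was 0.016 for the inflammatory CC ligands and 0.011 for those CXC ligands. The list of atypical receptors, fractalkine and other chemokine-like genes had 10 of 16 members past the filter, 6 positive and 4 negative with a median of 0.071 (-0.016 without NZB_W array 3), and none passed the test. Its tested members with the smallest p were Ackr3, Cx3cl1 (fractalkine, 0.15, SE 0.099), the cytokine Mif (-0.081, SE 0.063), the scavenging receptor Ackr4 (0.085, SE 0.068), the chemerin receptor Cmklr1 (-0.16, SE 0.17) and chemerin itself, Rarres2 (-0.16, SE 0.20). The peptidase Dpp4, which trims several chemokines, was below the filter and is named after its values were seen. It had log2 values of 3.78, 4.23 and 3.84 in NZB_W hearts, against 4.76 and 4.42 in NZW hearts, lower on every NZB_W array, with a difference of -0.64 (SE 0.19, unadjusted p = 0.0246, adjusted p = 0.873 in limma, in the fit over all genes). The fractalkine receptor Cx3cr1, on resident macrophages and monocytes, was likewise named after its values were seen. It was below the filter with 4.63, 4.32 and 5.87 in NZB_W hearts, against 4.56 and 4.599 in NZW hearts, high on NZB_W array 3 alone.

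Downstream of chemokine receptors, of 27 tested genes of G protein signalling, receptor desensitization and leukocyte motility, 20 were positive, with a median of 0.054, and none passed the test. Without NZB_W array 3, 12 were positive, with a median of -0.031. Grk5, a kinase that desensitizes G protein-coupled receptors, had log2 values of 8.55, 8.73 and 8.70 in NZB_W hearts, against 8.36 and 8.36 in NZW hearts. The groups did not overlap, and the difference was 0.30 (SE 0.079, unadjusted p = 0.0145, adjusted p = 0.786 in limma). The next by p were the GTPase Rhoa (0.17, SE 0.075), the inhibitory G protein subunit Gnai3 (0.25, SE 0.11), the leukocyte actin regulator Nckap1l (0.61, SE 0.33), the focal adhesion protein paxillin, Pxn (0.36, SE 0.24), and the phospholipase Plcb2 (-0.11, SE 0.082). Groups did not overlap, with NZB_W higher, in 3 of the 27 genes (Grk5, Rhoa and Gnai3), against 7.6% of all genes tested.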

How the data were processed

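Heart RNA (6 µg per label reaction, per the labels' protocols) from 3 NZB_W and 2 NZW mice was measured on Affymetrix arrays. The deposited values are log2 expression per probe set. RMA, GCRMA and Partek appear in the submitters' processing notes with neither version nor role, so which of them made the values is not stated, and RMA and GCRMA treat dim signals differently. All 5 columns match a sample, with 0 others.

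Titles set the groups. Among the 45101 probe sets, 64 controls were set aside, 34945 carry 1 symbol, 932 several and 9160 none in the platform annotation; 34741 of those with 1 symbol matched RefSeq names by Entrez identifier and 0 changed. limma 3.58.1 (R 4.3.3) was run on the deposited log2 values without further normalization (two-sided, no covariates, Benjamini-Hochberg over 11902 genes, threshold 0.05). Moderation used 3 residual and 1.69 prior degrees of freedom, and the SE of a difference had a median of 0.107. Values of members below the filter come from a fit over all 18193 genes, and single probe sets from a fit over 22819. Titles give both groups replicates 1 and 2 without saying that they pair animals, and deviations of same-numbered arrays correlated at -0.26 and 0.10, so arrays were not paired.

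Members and gene lists were chosen with earlier results of these data known. The rule for named genes takes every member past the filter, the 4 dim members with the largest difference, and up to 6 genes per pathway list by p. Alternatives covered normalization, filter, probe set choice, variance model, array weights, a replicate block and leaving out arrays. Figures were drawn with matplotlib 3.10.9.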

Additional observations from a re-analysis of the deposited data

How the results depend on the processing

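None of the 26 named members had an adjusted p under 0.05 in any of the 15 settings where it was followed, or on a separately tested probe set. The other members were not followed through these settings. Of the 26, 15 kept their sign throughout, while 10 changed it and Ccl4 had a difference of 0. The number of genes called was 1 with all arrays, 5 with the mean of a gene's probe sets, 2 without probe set types that can match more than 1 transcript (suffixes _s, _x and _a), 8 with array weights, 0 to 1 with single arrays left out and 0 without both arrays that stood apart (NZB_W array 3, NZW array 2), a setting chosen after the data were seen. With the replicate number as a block it was 0. That block gives NZB_W array 3 a level of its own, so its differences equal those without that array: 0.016 for the ligand median, -0.19 for ligands minus receptors, -0.11 for Ccl6, -0.026 for Cxcl14, 0.011 for Cxcl17 and -0.19 for Ccr1.

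With single arrays left out the ligand median ran from 0.016 to 0.39, the receptor median from 0.090 to 0.20 and their difference from -0.19 to 0.22. Over the same omissions Ccl6 ran from -0.22 to 0.26, Ccr6 from -0.23 to 0.019, Cxcl13 from -0.26 to 1.84, Cxcl14 from -0.026 to 0.29, Cxcl17 from -0.15 to 0.10 and Ccr1 from -0.19 to 0.63. The receptor median was 0.073 with no filter and 0.32 with the mean of all probe sets. Ligands minus receptors was -0.11 with that mean and -0.049 with array weights. Ccl6 was -0.018 and -0.029 in these 2 settings and -0.053 on its second probe set. Without both arrays that stood apart the ligand median was -0.011, ligands minus receptors -0.18, Ccl11 -0.0998, Ccl2 -0.032, Ccl6 -0.35, Ccl7 -0.070, Ccl9 -0.022, Ccr6 0.054, Cxcl13 -0.87, Cxcl14 -0.064, Cxcl17 0.14 and Ccr1 -0.19. Fewer arrays or other probe sets enter these settings by construction, and otherwise the cause was not tested. Dim signal, below the brightness filter, limits what can be seen for 24 of the 46 members.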
